A study of Homo sapiens with 16 samples.

Results

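The ZBTB genes are human genes named for a protein with a BTB domain and zinc fingers. In such proteins the BTB domain, also called POZ, joins the protein to a partner and can recruit corepressors, while the zinc fingers read DNA. Most studied members are transcriptional repressors with roles in lymphocyte development, the cell cycle, the reading of methylated DNA and neural development. ZBTB7A, a protein whose binding was mapped here, is itself a member of the family and represses the fetal γ-globin genes. BCL11A, the other mapped protein, is a zinc-finger repressor of the same genes and has no BTB domain.

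Members were the autosomal genes with a protein-coding (NM) transcript in the deposited gene table whose symbol starts with ZBTB and a number, without ZBTB7A, ZBTB7B and ZBTB7C. They numbered 38 of 18460 autosomal genes with an NM transcript. ZBTB8OS was matched by its name alone: it lies beside ZBTB8A on the opposite strand and its protein, archease, is not a BTB zinc finger. ZBTB33, on the X chromosome, is outside the rule.

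Binding was located by chromatin immunoprecipitation with sequencing (ChIP-seq) in 16 libraries, 8 ChIP and 8 control. BCL11A was mapped in HUDEP-2, an immortalised human erythroid progenitor line, through a V5-tagged BCL11A joined to an ER domain that 4-hydroxytamoxifen switches on (24 h, 1e-07 M; 2 ChIP and 2 control libraries), so that its list shows the tagged protein. ZBTB7A was mapped in the erythroleukaemia line K562 (4 ChIP and 4 control libraries). It was also mapped in HUDEP-2 cells that lack the Gγ-globin gene (ΔGγ), whose γ-globin promoter carries 195C>G or is WT. Each of these arms has 1 ChIP library and 1 control. The titles call the controls input and the antibody labels call them IgG. The 4 deposited peak lists held 12911 (BCL11A), 17331 (K562), 18784 (195C>G) and 36435 (WT) regions after identical ones were counted once.

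The lists pool replicates or come from 1 library, so no value has an error between replicates and no comparison has a p-value. Read depth is unknown. A region's score or signal is the authors' and is used only within its list. Regions were ranked by these values from 1, the strongest. The K562 list holds none, and its line order was used as rank. A promoter region has its summit, or its midpoint in the BCL11A and K562 lists, within 1 kb of an NM start of the gene. A gene body region lies within an NM transcript and farther than 1 kb from each of its gene's starts. Negative distances lie upstream of the start.

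Both HUDEP-2 ZBTB7A lists were empty on chromosome 6 between 28491883 and 33571446, a stretch that holds the major histocompatibility complex. It spans the starts of 171 genes, and ZBTB9, ZBTB12 and ZBTB22 are among them. The same stretch held 74 BCL11A regions and 175 K562 regions, at the promoters of 40 and 61 of its genes. The absence of 195C>G and WT regions at these 3 members therefore cannot be read as absence of binding. The promoter share of each list, and the share for BCL11A without ZBTB7A, are given with and without the genes of this stretch. Other shares include these genes. The stretch was found after the values were seen.

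ZBTB34 had the best-ranked promoter region of any member in each of the 3 ZBTB7A lists and also had a BCL11A region. Among members with a RefSeq promoter sequence at hand, ZBTB34, ZBTB26 and ZBTB37 were those whose upstream sequence was overlapped in all 4 lists. The upstream sequences below show promoters of different occupancy, from the RefSeq promoter table of GRCh38.p14, each limited to bases outside the exons of the deposited gene table. Capitals mark matches, on either strand, to TGACCA, known as a motif of BCL11A, or GACCCC, known as a core of the ZBTB7A motif; GGGGTC is GACCCC read on the other strand. ZBTB34 (chr9:126860389-126860638, plus strand) and ZBTB26 (chr9:122931552-122931762, minus strand) are shown because regions of all 4 lists overlapped them. ZBTB39 (chr12:57006547-57006796, minus strand) had strong ZBTB7A regions and none of BCL11A, and ZBTB9 (chr6:33454326-33454575, plus strand) a BCL11A region alone. ZBTB46 (chr20:63831265-63831514, minus strand) had regions at its RefSeq start and none at that of the deposited table, and ZBTB8B (chr1:32464822-32465056, plus strand) had no promoter region in any list. ZBTB39, ZBTB46 and ZBTB9 were chosen after their values were seen.
ZBTB34: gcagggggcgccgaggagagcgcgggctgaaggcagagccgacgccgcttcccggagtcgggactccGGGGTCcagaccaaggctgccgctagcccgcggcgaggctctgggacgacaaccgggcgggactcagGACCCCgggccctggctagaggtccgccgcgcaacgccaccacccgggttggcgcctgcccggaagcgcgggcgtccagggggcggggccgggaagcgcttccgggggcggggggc
ZBTB26: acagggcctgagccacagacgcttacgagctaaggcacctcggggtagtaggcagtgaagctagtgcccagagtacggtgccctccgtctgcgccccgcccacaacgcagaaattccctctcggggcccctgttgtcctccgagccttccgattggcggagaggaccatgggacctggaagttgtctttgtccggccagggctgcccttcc
ZBTB39: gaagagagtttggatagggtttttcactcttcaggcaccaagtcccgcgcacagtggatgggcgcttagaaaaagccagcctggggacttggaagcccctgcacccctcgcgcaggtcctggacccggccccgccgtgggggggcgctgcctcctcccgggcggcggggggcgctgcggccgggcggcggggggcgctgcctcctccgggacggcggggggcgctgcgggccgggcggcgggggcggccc
ZBTB9: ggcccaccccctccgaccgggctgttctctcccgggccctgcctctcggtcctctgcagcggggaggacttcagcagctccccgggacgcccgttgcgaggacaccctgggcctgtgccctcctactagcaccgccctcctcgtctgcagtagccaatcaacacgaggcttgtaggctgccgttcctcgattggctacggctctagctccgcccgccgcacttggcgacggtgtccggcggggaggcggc
ZBTB46: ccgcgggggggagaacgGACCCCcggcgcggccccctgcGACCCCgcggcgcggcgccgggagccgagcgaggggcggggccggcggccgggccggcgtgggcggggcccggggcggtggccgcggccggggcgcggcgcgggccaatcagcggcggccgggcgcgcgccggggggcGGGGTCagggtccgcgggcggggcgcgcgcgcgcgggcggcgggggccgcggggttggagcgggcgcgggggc
ZBTB8B: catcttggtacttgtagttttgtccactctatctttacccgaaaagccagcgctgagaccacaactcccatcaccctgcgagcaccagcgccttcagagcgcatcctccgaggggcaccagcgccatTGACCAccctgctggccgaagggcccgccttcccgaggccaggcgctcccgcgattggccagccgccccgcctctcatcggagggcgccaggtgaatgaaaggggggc

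In the ZBTB34 sequence both GACCCC matches, 1 on each strand, lie upstream of the start within the K562 region of rank 391. The best regions of K562, 195C>G and WT were centred at 126860336, 126860322 and 126860335, outside the printed sequence. The ZBTB46 sequence held 3 such matches, and ZBTB26, ZBTB39 and ZBTB9 held a match to neither motif. The only match in ZBTB8B was to TGACCA. RefSeq windows from 250 bases upstream to 50 downstream of the start were at hand for 32 of the 38 members (84.2%) and 14533 of all genes (78.7%), so the share over all genes leaves out more than 20% of them. Of the windows, 4 of 32 members (12.5%) held GACCCC against 20.9% of all genes, and 5 (15.6%) held TGACCA against 9.08%. A match is a run of letters and not a measured site.

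Promoter regions were found at 11 members (28.9%) in the BCL11A list, where 25.2% of all genes had one. The members with a region in the K562 list numbered 21 (55.3%), against 34.0% of all genes. In 195C>G there were 18 (47.4%), against 30.1% of all genes, and in WT 27 (71.1%), against 46.1%. The BCL11A share lies near that of all genes and is no result about the members, while the shares of the 3 ZBTB7A lists lie above those of all genes. Without the genes of the empty chromosome 6 stretch the shares were 25.7% of 35 members against 25.2% of all genes for BCL11A, 57.1% against 33.9% for K562, 51.4% against 30.4% for 195C>G and 77.1% against 46.5% for WT.

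Gene body regions were found at 6 members (15.8%) in the BCL11A list against 13.8% of all genes, and at 7 (18.4%) in K562 against 14.8%. In 195C>G 11 members (28.9%) had a gene body region against 17.2% of all genes, and in WT 15 (39.5%) against 26.7%. Median gene length was 26.3 kb for the members and 24.2 kb for all genes.

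The RefSeq windows of the members, 1 a gene and the first listed, were also richer in CpG. Of the 32 members with a window, 27 (84.4%) had an observed-to-expected CpG ratio of at least 0.6, against 67.5% of all genes with a window. For this split a region was counted only within 1 kb of the start of that window, and chromosome 11 was left out of the 195C>G and WT counts. Among the CpG-rich windows 33.3% of members had a BCL11A region against 34.2% of all genes, and 55.6% had a K562 region against 45.7%. In 195C>G 36.0% of members with such a window had a region against 40.1% of all genes, and in WT 64.0% against 61.7%. Of the other 5 windows, poorer in CpG, 1 had a region for BCL11A (ZBTB22), 1 in K562 and 1 in 195C>G (ZBTB47 in both) and 2 in WT (ZBTB45 and ZBTB47), where 6.65, 10.5, 9.04 and 15.5% of all genes did. The part of CpG content in the shares was not tested beyond this split.

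The 6 members with no window, ZBTB6, ZBTB10, ZBTB16, ZBTB17, ZBTB40 and ZBTB41, are outside it. None of these had a BCL11A promoter region, against 19.8% of all genes with no window. A K562 region was found at 5 of the 6 (83.3%, against 26.9%), a 195C>G region at 5 (83.3%, against 24.7%) and a WT region at all 6 (against 38% of such genes). The members left out of the split were thus those with ZBTB7A regions most often.

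At least 1 list held a promoter region of 32 members (84.2%), against 56.1% of all genes. Exactly 1 list held 9 members (23.7%, against 14.1%), 2 lists held 7 (18.4%, against 15.3%) and 3 lists held 10 (26.3%, against 16.3%). With only the stronger 50% of each list, 5 members had a BCL11A promoter region (13.2%, against 14.3%), 14 a K562 region (36.8%, against 21.4%), 13 a 195C>G region (34.2%, against 18.5%) and 22 a WT region (57.9%, against 33.9%). The difference between BCL11A and the ZBTB7A lists was thus also seen among stronger regions, where the BCL11A share again lay near that of all genes.

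The members bound in all 4 lists were ZBTB4, ZBTB21, ZBTB26, ZBTB34, ZBTB37 and ZBTB45, or 15.8% of members against 10.5% of all genes. ZBTB34 stood at rank 2600 for BCL11A (score 61.1), 391 in K562, 126 in 195C>G (signal 180) and 218 in WT (signal 157). Its ZBTB7A regions were centred 329, 343 and 330 bp upstream of the start in K562, 195C>G and WT. The strongest BCL11A region lay on the other side, 300 bp downstream in the first intron, and a weaker BCL11A region of rank 8090 lay 277 bp upstream.

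ZBTB37 stood at rank 6717 for BCL11A (score 28.3), 762 in K562, 4583 in 195C>G (signal 58.0) and 654 in WT (signal 118), in each case 144 to 300 bp downstream of the start. ZBTB26 stood at 7680 for BCL11A, 12867 in K562, 7706 in 195C>G and 5324 in WT, and all 4 regions lay within 173 bp of its start. ZBTB45 stood at 12046 for BCL11A, 6832 in K562, 4279 in 195C>G and 2446 in WT. Where ZBTB34 was strong in every ZBTB7A list, these 3 genes had different orders in different lists.

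ZBTB4, which encodes a protein that binds methylated CpG, had the best-ranked BCL11A promoter region of the family, at rank 329 with a score of 233. That region lay 583 bp upstream of ZBTB4, which shares it with POLR2A, the gene of the largest RNA polymerase II subunit, whose start is 130 bp away on the opposite strand. Its ZBTB7A regions were weaker, with ranks of 9289 in K562, 5772 in 195C>G and 14210 in WT. Around its 2 NM starts there were 3 in K562, 5 in 195C>G and 6 in WT, some of which overlap one another. Of these, 1 in K562, 2 in 195C>G and 3 in WT were also shared with POLR2A. ZBTB21, which encodes a transcriptional repressor, had 4 BCL11A regions, the best of them at rank 2036 (score 73.0). Its best regions stood at rank 8390 in K562, 12785 in 195C>G (signal 33.3) and 5298 in WT (signal 52.7).

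No promoter region was found in any list at ZBTB8A, ZBTB8B, ZBTB18, ZBTB32, ZBTB46 and ZBTB49, 15.8% of members against 43.9% of all genes. ZBTB18 encodes a repressor of neuronal development, and the BCL11A, K562, 195C>G and WT regions nearest to it lay 399, 301, 782 and 398 kb from its starts. For ZBTB8A and ZBTB8B the nearest region of any list lay 18.3 and 15.5 kb away, both in WT. ZBTB49 has its start 28 bp from that of LYAR, which encodes a nucleolar protein, and no list had a region shared by the pair; the nearest region to ZBTB49, in WT, lay 34.3 kb away. ZBTB46 encodes a factor known from dendritic cells. The start of ZBTB46 in the RefSeq table of GRCh38.p14 lies upstream of that in the deposited table and had a region in K562 (rank 5358, 283 bp upstream), in 195C>G (rank 4474, signal 58.7, 349 bp upstream) and in WT (rank 8644, signal 40.7, 272 bp upstream). With these starts, tried after the values were seen, no other of the 32 members with a RefSeq window gained or lost a promoter region (30 in 195C>G and WT, without chromosome 11), and the 6 members with no window could not be tried.

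Members with a promoter region in all 3 ZBTB7A lists numbered 15 (39.5%), against 20.7% of all genes. Beside the 6 above they were ZBTB10, ZBTB11, ZBTB17, ZBTB24, ZBTB39, ZBTB40, ZBTB41, ZBTB44 and ZBTB47, none of which had a BCL11A promoter region. At least 1 ZBTB7A list held a promoter region of 30 members (78.9%), against 53.2% of all genes.

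ZBTB24, the gene mutated in a form of the immunodeficiency, centromeric instability and facial anomalies syndrome, stood at rank 2212 in K562, 814 in 195C>G (signal 113) and 1293 in WT (signal 94.8). ZBTB40 stood at 1775 in K562, 2087 in 195C>G (signal 81.2) and 1518 in WT (signal 90.1). ZBTB39, whose sequence is printed above, stood at 2461 in K562, 2251 in 195C>G (signal 78.6) and 2025 in WT (signal 80.6). These 3 genes were thus among the stronger members in each ZBTB7A list, while the nearest BCL11A region lay 27.1 kb from ZBTB24, 88.6 kb from ZBTB40 and 82.1 kb from ZBTB39.

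ZBTB17 encodes MIZ-1, a partner of MYC at promoters, and its promoter ranks differed widely between lists. Its promoter region stood at rank 1553 in K562, in the strongest 10% of that list, but at 16587 of 18784 in 195C>G (signal 28.1) and 33708 of 36435 in WT (signal 15.9). These 3 regions overlapped, with centres 437 to 494 bp downstream of the start. Between K562 and the HUDEP-2 lists the cell line and the peak calling both change, and their parts cannot be told apart.

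ZBTB44 stood at rank 8389 in K562, 4505 in 195C>G (signal 58.4) and 2216 in WT (signal 77.5). ZBTB41 stood at 2104 in K562, 4614 in 195C>G (signal 57.8) and 6424 in WT (signal 48.0). Its regions lay 797, 970 and 963 bp upstream in K562, 195C>G and WT, close to the edge of the window, and were shared with CRB1, a gene of cell polarity that starts 920 bp away on the opposite strand. ZBTB11 stood at 3607 in K562, 9208 in 195C>G and 11441 in WT, with regions 770 to 860 bp inside the gene. ZBTB47 stood at 4494 in K562, 8563 in 195C>G and 24506 in WT, and ZBTB10, which encodes a repressor known to bind telomeric repeats, at 13122 in K562, 15258 in 195C>G and 6625 in WT.

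The strongest 10% of each list held the promoter region of 1 member (2.63%, against 2.81% of all genes) for BCL11A, namely ZBTB4. In K562 they were 4 (10.5%, against 4.79%), ZBTB17, ZBTB34, ZBTB37 and ZBTB42, and in 195C>G 2 (5.26%, against 3.98%), ZBTB24 and ZBTB34. In WT they were 7 (18.4%, against 9.83%): ZBTB24, ZBTB34, ZBTB37, ZBTB39, ZBTB40, ZBTB44 and ZBTB45. The best region of bound members stood at a median of 52.0% of the list for BCL11A against 43.9% for all bound genes, 25.9% against 37.5% in K562, 33.8% against 39.6% in 195C>G and 23.01% against 28.2% in WT. The members spread widely around these medians, from 2.55 to 93.8% of the list for BCL11A and from 0.671 to 88.3% in 195C>G, and the differences were not tested.

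By known role, the genes of lymphocytes and dendritic cells (ZBTB1, ZBTB16, ZBTB20, ZBTB24, ZBTB25, ZBTB32 and ZBTB46) had no BCL11A promoter region among 7, 1 in K562, 3 in 195C>G and 5 in WT. The 4 genes of methylated DNA and telomeres, ZBTB4, ZBTB10, ZBTB38 and ZBTB48, had 2 with a region for BCL11A, 3 in K562, 3 in 195C>G and 4 in WT. Among ZBTB2, ZBTB5, ZBTB17 and ZBTB49, linked to p53, MYC or cell growth, 1 had a region for BCL11A, 1 in K562, 1 in 195C>G and 3 in WT. Among ZBTB11, ZBTB18, ZBTB21 and ZBTB42, linked to neural or muscle tissue, 2 had a region for BCL11A, 3 in K562, 2 in 195C>G and 2 in WT. The 18 less described members, without ZBTB8OS, had 6 for BCL11A, 13 in K562, 9 in 195C>G and 12 in WT. Over all genes the shares were 25.2% for BCL11A, 34.0% in K562, 30.1% in 195C>G and 46.1% in WT. Groups of 4 to 7 genes are too small to set such counts apart from these shares. The 18 less described members stood above these shares in each list, most of all in K562 with 13 genes, which was not tested. Among these 18 are ZBTB9, ZBTB12 and ZBTB22, in the chromosome 6 stretch where 195C>G and WT held no region. Their counts are thus not alike to that of K562. ZBTB46 counts here as having none, although its RefSeq start had K562, 195C>G and WT regions.

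The BCL11A and K562 lists shared 8 members with a promoter region in both (21.1%, against 15.4% of all genes): ZBTB4, ZBTB21, ZBTB26, ZBTB34, ZBTB37, ZBTB42, ZBTB45 and ZBTB48. These are 72.7% of the 11 BCL11A members, where 61.1% of all BCL11A genes were also in K562. They are 38.1% of the 21 K562 members, where 45.4% of all K562 genes were also in the BCL11A list. The regions themselves overlapped by at least 1 bp at 4 of the 8 (50.0%), against 76.0% of all genes in both lists, and the 4 were ZBTB21, ZBTB26, ZBTB34 and ZBTB37. At ZBTB42, a gene of the neuromuscular junction, the BCL11A region of rank 11244 lay 256 bp downstream in the coding exon, while the K562 region of rank 668 lay 838 bp upstream. At ZBTB48, which encodes a telomere-binding protein, the BCL11A region (rank 8767) lay 835 bp downstream and the K562 region (rank 13477) 377 bp downstream. Being in both lists thus did not mean being bound at the same place.

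Within HUDEP-2 the BCL11A and 195C>G lists shared 6 members (15.8%, against 14.4% of all genes), and the BCL11A and WT lists 8 (21.1%, against 19.5%). The regions overlapped at 6 of the 6 members with 195C>G and at 7 of the 8 with WT, against 79.6 and 88.5% of all genes, each without chromosome 11. The exception was ZBTB5, a repressor gene of the p53 pathway, where the BCL11A region of rank 4462 (score 40.4) lay 759 bp upstream and the WT region of rank 16250 lay 212 bp downstream. These HUDEP-2 cells carry different changes, tagged BCL11A in 1 case and the ΔGγ deletion in the other.

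A BCL11A promoter region without any of ZBTB7A was found at 2 members (5.26%, against 2.89% of all genes), ZBTB9 at rank 5261 (score 35.1) and ZBTB22 at rank 12115 (score 14.7). Both lie in the chromosome 6 stretch with no 195C>G or WT region, so K562 is the only ZBTB7A list that could show them. The nearest K562 region to ZBTB9 lay 28.7 kb away, and that to ZBTB22, 2.81 kb inside the gene, lies at the start of TAPBP. Without that stretch no member of 35 was in the BCL11A list alone, where 2.85% of all genes were.

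K562 and WT shared 18 members with a promoter region (47.4%, against 27.3% of all genes). These are 85.7% of the K562 members, near the 80.4% of all K562 genes that were also in WT. They are 66.7% of the WT members, where 59.3% of all WT genes were also in K562. Without chromosome 11 the regions overlapped at 15 of 16 such members (93.8%, against 95.7% of all genes). The exception was ZBTB47, with the K562 region 983 bp downstream and its only WT promoter region 879 bp upstream. A further WT region of ZBTB47 overlapped that K562 region (rank 21104), but its summit lay 1327 bp downstream, outside the promoter window. Members in K562 and not in WT numbered 3 (7.89%, against 6.65%): ZBTB42 at rank 668, ZBTB14 at 4423 and ZBTB12 at 9106. ZBTB12 lies in the empty chromosome 6 stretch, and the WT list had no region in 4.97 Mb around ZBTB14, in which 12 genes start and K562 had 5 regions. The nearest WT region to ZBTB42 lay 21.4 kb from its start.

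Members in WT and not in K562 numbered 9 (23.7%, against 18.8%): ZBTB1, ZBTB2, ZBTB5, ZBTB8OS, ZBTB16, ZBTB20, ZBTB25, ZBTB38 and ZBTB43. The best of these in WT was the region of rank 6901 that ZBTB1 and ZBTB25 share, a pair of lymphocyte genes with starts 639 bp apart on opposite strands. ZBTB38, which encodes a reader of methylated DNA, stood at 8384 and ZBTB2, a repressor gene of the p53 pathway, at 9850, and the others stood between 16164 and 32497. The WT list is longer than that of K562, and with the 12911 best regions of each list 11 members were in both (28.9%, against 17.8%).

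The last of these 9, ZBTB8OS, had its WT region (rank 32497) 550 bp upstream, shared with RBBP4, a histone chaperone gene that starts 558 bp away on the opposite strand. In all, 7 members (18.4%) had the start of another gene within 1 kb, against 14.6% of all genes. Of these 7, 1 had a promoter region for BCL11A (14.3%), 3 in K562 (42.9%), 2 in 195C>G (28.6%) and 5 in WT (71.4%), where 36.7, 48.0, 43.3 and 65.6% of all genes with such a neighbour did. Of the 31 other members, 10 had a region for BCL11A (32.3%), 18 in K562 (58.1%), 16 in 195C>G (51.6%) and 22 in WT (71.0%), where 23.3, 31.6, 27.9 and 42.7% of all genes did. The higher shares of members in K562 and 195C>G were thus found at those with no such neighbour. A shared region cannot be assigned to either gene.

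The 195C>G and WT lists address whether ZBTB7A regions at these genes were found with both γ-globin promoters. All 18 members with a 195C>G promoter region also had one in WT, as did 97.4% of all genes with a 195C>G promoter region. These 18 are 47.4% of members, against 29.3% of all genes. The regions overlapped at each of the 18, against 98.6% of all genes in both lists. No member was in 195C>G and not in WT (0.785% of all genes were). WT members without a 195C>G promoter region numbered 9 (23.7%, against 16.7%): ZBTB1, ZBTB2, ZBTB3, ZBTB5, ZBTB6, ZBTB8OS, ZBTB25, ZBTB43 and ZBTB48. Thus 18 of the 27 WT members (66.7%) had a WT promoter region overlapped in 195C>G, near the 63.4% of all genes.

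Of WT promoter regions of all genes, 33.8% were overlapped in 195C>G in the weakest 10% of the WT list, against 95.6% in the strongest 10%. From these shares the best region would be overlapped at 19.6 of the 27 members, and it was at 18. Here the region shared by ZBTB1 and ZBTB25, which was not overlapped, counts for each gene. Over all 49 WT promoter regions of the members, each counted once, 33 were overlapped, against 30.6 from these shares. The members as a set were therefore overlapped about as often as WT promoter regions of like rank.

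**Figure D1:**
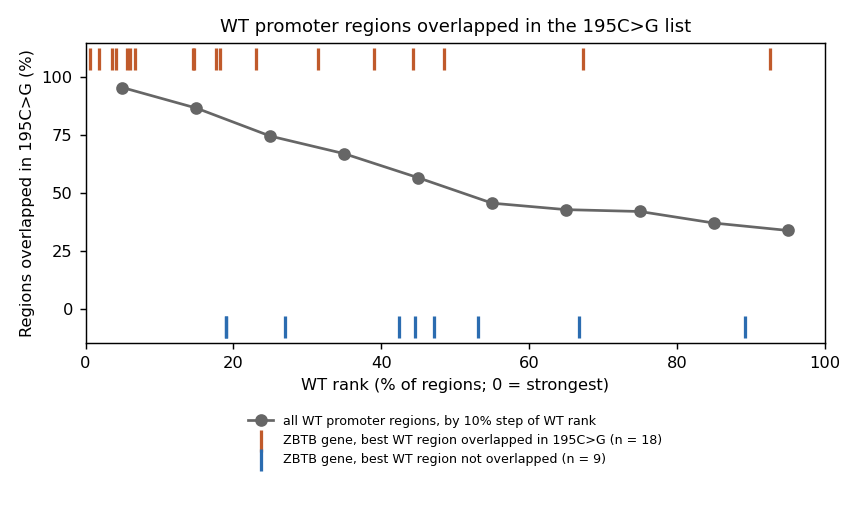
Share of all WT promoter regions overlapped by a 195C>G region (vertical axis, %) by 10% steps of WT rank (horizontal axis, % of the list, 0 strongest; grey line and points), with ticks for the best WT region of each ZBTB gene, orange along the top where it was overlapped (18 genes) and blue along the bottom where it was not (9 genes). The ticks have no value on the vertical axis; the strongest blue ticks, those of ZBTB1 and ZBTB25, coincide at 18.9% of the list.

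The strongest WT region without an overlap was that shared by ZBTB1 and ZBTB25, at rank 6901 with a signal of 46.2, in a step of the list in which 86.7% of promoter regions were overlapped. The region next to it, at rank 7993, was not overlapped either, and the nearest 195C>G region lay 38.8 kb from the start of ZBTB1. ZBTB2 followed at rank 9850 (signal 37.8), where 74.6% were overlapped. Farther inside ZBTB2, 1347 to 1354 bp from the start, K562 had a region of rank 4408, 195C>G 1 of rank 17310 (signal 27.3) and WT 1 of rank 6647 (signal 47.1). The other 6 were ZBTB48 at rank 15466, ZBTB5 at 16250, ZBTB43 at 17153, ZBTB3 at 19329, ZBTB6 at 24330 and ZBTB8OS at 32497, where 37.0 to 56.6% of regions were overlapped. With 1 ChIP library per arm and a shorter 195C>G list, these absences do not show a loss of binding.

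Among shared members the order of strength was alike in both lists, with a Spearman correlation of ranks of 0.763 over 18 members and 0.715 over 5418 genes. These are descriptions, since genes of 1 library share its depth. Between K562 and WT it was 0.509 over 18 members, and 0.524 over 5043 genes. Between BCL11A and K562 it was -0.05 over 8 members and 0.03 over 2847 genes.

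The best region of each bound member had a median position of 174.5 bp downstream in 195C>G and 177 bp in WT, against 15 and 22 bp for all genes. In K562 the median was 59 bp downstream for members and 15 bp upstream for all genes, and for BCL11A 18 bp downstream for members and 41 bp for all genes. Upstream of the start lay the best region of 5 of 11 members for BCL11A (45.5%, against 43.4% of all genes) and of 7 of 21 in K562 (33.3%, against 52.1%). In 195C>G they were 6 of 18 (33.3%, against 48.5%) and in WT 8 of 27 (29.6%, against 47.6%). For BCL11A the members thus lay much as all genes did, and in the ZBTB7A lists fewer lay upstream. WT promoter regions of members were also placed, with those shared by ZBTB1 and ZBTB25 counted for each gene. Of these, 27 lay in introns, 16 outside the gene's transcripts, 7 in untranslated exons and 2 in coding exons.

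**Figure D2:**
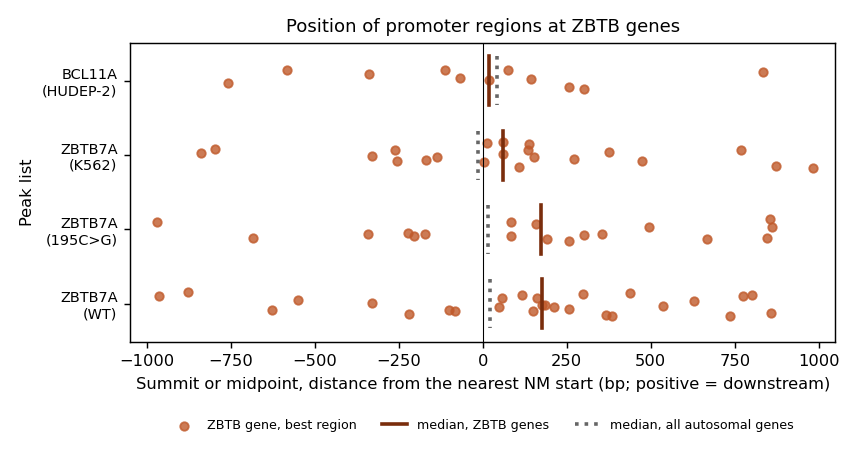
Position of the best promoter region of each ZBTB gene relative to its nearest NM start (horizontal axis, bp, positive downstream) in each peak list (rows; points are spread vertically to keep them apart), with the median of the ZBTB genes (solid bar) and of all autosomal genes (dotted bar). In the 195C>G and WT rows the ZBTB medians stand at 174.5 and 177 bp, right of the medians of all genes at 15 and 22 bp.

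Some members lay close to the edge of the 1 kb window. Just inside were ZBTB47 in K562 (983 bp downstream) and ZBTB41 in 195C>G and WT (970 and 963 bp upstream). Just outside were ZBTB10 for BCL11A (1068 bp downstream, rank 7150) and ZBTB2 in 195C>G and K562 (1347 and 1354 bp downstream). So was ZBTB5, in K562 (1188 bp upstream, rank 6378) and in 195C>G (1402 bp upstream, rank 17397). When any overlap of a region with the window was counted, ZBTB5 joined the WT members overlapped in 195C>G. These were then 19 of 27 (70.4%, against 63.5% of all genes).

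ZBTB16, the member with the most gene body regions in 3 of the 4 lists, encodes PLZF, a regulator of innate-like lymphocytes that is fused to RARA in some leukaemias. It spans 191 kb on chromosome 11 and had 5 gene body regions for BCL11A, 1 in K562, 4 in 195C>G and 10 in WT, all in introns. The strongest was in 195C>G and WT, 22384 and 22391 bp downstream of the nearest start: the 195C>G region ranked 114 with a signal of 187, and the WT region ranked 184 with a signal of 163. This was stronger than the promoter region of any member in those lists, and BCL11A had a region 22423 bp downstream at rank 3283 (score 51.9), while K562 had none there. Between 155750 and 155906 bp downstream all 4 lists had a region, at rank 1225 for BCL11A (score 102), 12606 in K562, 2459 in 195C>G (signal 76.1) and 2810 in WT (signal 70.4).

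Among 1510 genes of like length, within 1.5 times that of ZBTB16, 1.85% had at least as many gene body regions as ZBTB16 for BCL11A, 27.0% in K562, 6.23% in 195C>G and 2.52% in WT. Its WT gene body regions were overlapped in 195C>G in 4 of 10 cases, against 4.91 from the shares of WT promoter regions of like rank. At its promoter ZBTB16 had regions in 195C>G (rank 6917, signal 47.3) and WT (rank 17690, signal 26.1), and none for BCL11A or in K562. For the BCL11A and K562 lists, positions of chromosome 11 genes were moved to the unmodified build.

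**Figure D3:**
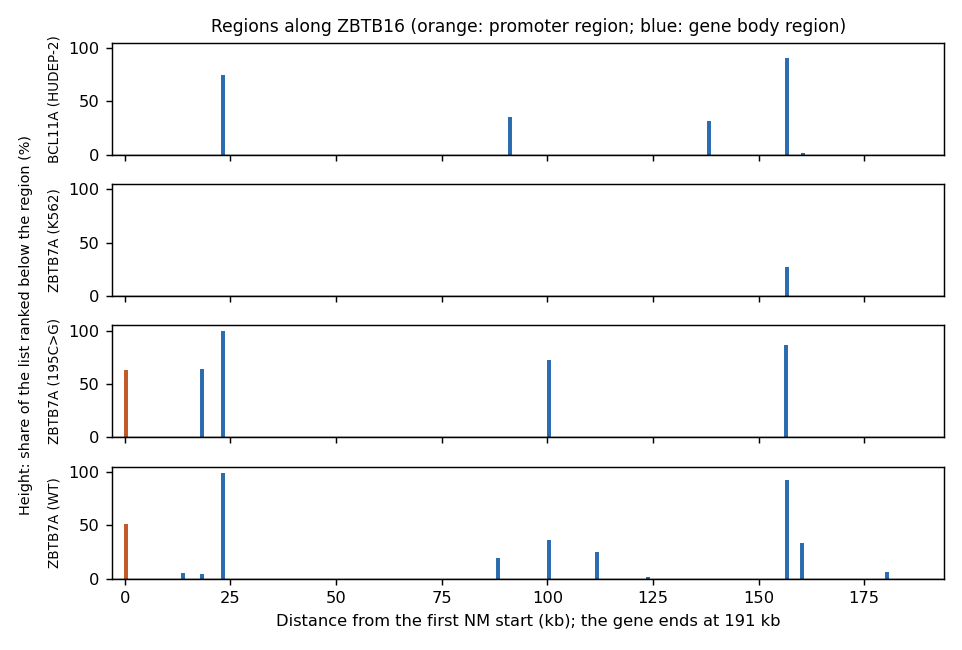
Regions along ZBTB16 in the 4 peak lists (panels): the horizontal axis is the distance from its first NM start in kb, and bar height is the share of the list ranked below the region (%), with promoter regions in orange and gene body regions in blue. The tall bars in the left part of the 195C>G and WT panels are the regions of rank 114 and 184, with a lower bar at the same place for BCL11A and none in K562, and all 4 panels have a bar to the right of the middle of the gene.

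ZBTB38 followed with 2 gene body regions for BCL11A, 4 in K562, 2 in 195C>G and 3 in WT, and the best K562 region stood at rank 2362. Of 2221 genes of like length, 2.57% had at least as many in K562. ZBTB17 had an intron region 25050 bp downstream of its start in 195C>G (rank 1991, signal 82.5) and 25096 bp downstream in WT (rank 778, signal 112). A K562 region lay near these, 24633 bp downstream (rank 12297), without overlapping them. At ZBTB17 the promoter region was thus the better ranked in K562, by line order, and the intron region in both HUDEP-2 lists, by signal. ZBTB4 had 2 gene body regions in 195C>G and 2 in WT, and ZBTB45 had 3 in WT, the best of them at rank 11951 in an untranslated exon.

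ZBTB25 had 2 gene body regions in each ZBTB7A list, and all 6 lay at the start of AKAP5, a gene for a kinase-anchoring protein inside ZBTB25. The K562 gene body region of ZBTB22 lay at the start of TAPBP, and no other gene body region of a member lay within 1 kb of another gene's NM start. ZBTB46 had an intron region 30037 to 30156 bp downstream of the deposited start, at rank 2457 in K562, 7935 in 195C>G (signal 44.0) and 23288 in WT (signal 21.3). ZBTB32, a gene of T cells with no promoter region, had 1 gene body region in 195C>G and 4 in WT, the best at WT rank 10728 (signal 35.9). The nearest BCL11A and K562 regions, at ranks 118 and 195, lay 12.6 and 13.1 kb from its start. Their midpoints lay beyond its end, though the BCL11A region reached into the gene.

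ZBTB20, the longest member at 833 kb, had 1 gene body region for BCL11A, none in K562, 1 in 195C>G and 1 in WT. The 195C>G and WT regions lay 68392 and 68402 bp upstream of the nearest start at ranks 9685 and 11102. Just past the promoter window, ZBTB10 had gene body regions in its coding exon for BCL11A (2 regions, best rank 7150), in 195C>G (rank 8058) and in WT (rank 10288).

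Of 8 BTB zinc-finger genes under other names, 2 had a BCL11A promoter region, 4 a K562, 4 a 195C>G and 5 a WT region, and none had all 4. Over all genes the shares were 25.2% for BCL11A, 34.0% in K562, 30.1% in 195C>G, 46.1% in WT and 10.5% for all 4, so the counts of 2 and 0 are near them. The counts of 4, 4 and 5 in K562, 195C>G and WT lie above them, as those of the members did. With 8 genes this was not tested. GZF1 (rank 525) and ZNF131 (rank 8776) had the 2 BCL11A regions. PATZ1 stood at rank 3556 in K562, 1545 in 195C>G and 1277 in WT, BCL6, the germinal centre repressor, at 4364 in K562, and MYNN at 2371 in 195C>G and 812 in WT.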

How the data were processed

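The submitters' processing notes name Trimmomatic 0.3.2, Bowtie2 2.2.9, bedtools, Picard and Bowtie, without their settings, and the build GRCh38 (hg38). The deposited BCL11A list holds a score per region and the deposited K562 list no value; per the file names both keep regions by the irreproducible discovery rate over pooled replicates. The deposited 195C>G and WT lists, SPP calls from 1 library each per the file names, hold a signal, a −log10 false discovery rate and a summit per region, on a chromosome 11 without HBG2. Chromosome 11 gene starts after HBG1 were moved to the unmodified build for the BCL11A and K562 lists, by the offset of the deposited gene table from the RefSeq one, and chromosome 11 was left out where lists of both kinds were overlapped.

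Only standard chromosomes were used, and repeats of an identical region were dropped (91 BCL11A, 852 K562, 185 195C>G and 416 WT). Partly overlapping regions were kept, and 1 site may hold several. Promoter and gene body regions were counted with Python 3.11.15, pandas 2.3.3 and numpy 2.4.6, on code tested on simulated data. No test was run: members are set beside all 18460 genes. The WT regions expected to be overlapped in 195C>G are sums of the overlapped share of WT promoter regions in the same 10% step of WT rank. K562 order as rank rests on the file alone.

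The members and gene lists were chosen with earlier results of these data known. Every member is accounted for. Values are given for members with a promoter region in all lists or none, the best 6 by rank in each list, those found in 1 of 2 compared lists, and those with the most gene body regions. ZBTB11 and ZBTB47 were described beyond this rule, after their values were seen. Alternatives covered the window, stronger regions, list length, overlap, chromosome 11, ZBTB8OS, RefSeq starts and the chromosome 6 stretch; the last pair was added after seeing the data. The list of corepressor genes is not reported here.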

Additional observations from a re-analysis of the deposited data

How the results depend on the processing

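Counts of members were repeated under other settings, giving 75 counts over 11 results, of which 64 stayed within 1.5 times the reported count and 11 moved further; the cause was not tested unless the setting itself has fewer regions. With a 500 bp window, members in both the BCL11A and K562 lists numbered 4 (10.5%, against 11.8% of all genes). With the stronger 50% of each list, 5 members had a BCL11A promoter region (13.2%, against 14.3%), 3 a BCL11A gene body region (7.89%, against 8.0%), 3 a K562 gene body region (7.89%, against 8.16%) and 7 a 195C>G gene body region (18.4%, against 10.0%), while 10 were in both K562 and WT (26.3%, against 16.4%) and 2 in both BCL11A and K562 (5.26%, against 6.21%). With 12911 regions in each list, 16 had a WT promoter region (42.1%, against 26.9%), 8 a WT gene body region (21.1%, against 11.8%) and 11 were in both K562 and WT (28.9%, against 17.8%). Counting only overlapping regions left 4 in both BCL11A and K562 (10.5%, against 11.7%). The count shared by BCL11A and K562 therefore rests on the window and on regions that do not overlap.

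No paired analysis was possible because the deposited lists pool replicates or hold 1 library, and leaving out a replicate could not be run for the same reason. Depth is unknown, 195C>G and WT have 1 library each, and absence from a list does not show absence of binding.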
